A study of Homo sapiens with 9 samples.

Results

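The messenger RNAs of 8 AU-rich element binding proteins were compared between RNA recovered by immunoprecipitation and input RNA of the same human cell line. The immunoprecipitated protein was tagged CNOT7, a subunit of the CCR4-NOT complex. The members were ZFP36, ZFP36L1, ZFP36L2, HNRNPD, KHSRP, ELAVL1, TIA1 and TIAL1, chosen by gene symbol. Each symbol matched 1 row among 30956 genes, and all 8 passed the filter that left 16674 genes for testing, a normalized count of at least 10 in at least 3 libraries. The mRNAs of the 3 ZFP36 proteins were 3.13-fold to 6.35-fold higher in the recovered RNA than in the input. HNRNPD and KHSRP mRNAs were lower, by 2.17-fold and 1.63-fold in the input over the recovered RNA. No difference was called for ELAVL1, TIA1 and TIAL1. Over all genes tested, 22.5% were called higher and 21.3% lower. When libraries were scaled to total reads, KHSRP lost its call, and ELAVL1 and TIAL1 were called higher.

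AU-rich elements are stretches of A and U in the 3′ untranslated regions of many short-lived mRNAs, such as those of cytokines and immediate-early transcription factors. Proteins of the ZFP36 family (ZFP36 is also called tristetraprolin) bind these elements and recruit the CCR4-NOT complex, which shortens the poly(A) tail and starts decay. Other binders of the same elements stabilise the mRNA or hold back its translation. The data measure the mRNAs that encode these proteins, not the proteins or their binding.

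The cells were HEK293T, a human embryonic kidney line that carries the SV40 large T antigen, grown in DMEM with fetal bovine serum. RNA immunoprecipitation followed by sequencing (RIP-seq) was done in 3 libraries with V5-tagged CNOT7, a deadenylase subunit of CCR4-NOT, carrying the D40A substitution that impairs its catalysis. Input RNA came from cells given 3 µg/mL doxycycline for 24 h (3 libraries) or from cells without it (3 libraries), and the labels give all RNA as cytoplasmic and depleted of ribosomal RNA. The labels do not say whether the cells used for the immunoprecipitation received doxycycline, nor which promoter drives the tagged protein. The table has a column for each of the 3 RIP libraries and for 3 inputs, here called input 1 to 3, whose names do not say which of the 2 input groups they belong to. No immunoprecipitation without the tagged protein was analysed here, so recovery that does not depend on CNOT7 is not subtracted from any value. The labels do not tell whether replicate libraries were grown separately, so each p-value reflects the spread between these libraries alone, which may be technical.

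Reads in genes ranged from 37140622 to 40764899 in the RIP libraries and from 37290120 to 38918356 in the inputs. Transcripts of the mitochondrial genome held 0.931% to 1.12% of reads in the RIP libraries and 18.6% to 26.6% in the inputs, a gap that moves any scaling to total reads. RIP library 2 stood apart at the low end, with 14786 genes at no read against 6720 and 6398 in RIP libraries 1 and 3. The 9 HEK293T markers examined (among them PAX2, VIM and KRT18) were all at 10 normalized counts or more in every input, while 2 of 10 markers of blood, red cells, liver, fibroblasts and endothelium were. CNOT7 mRNA had 86982 ± 11495 normalized counts (SD, n = 3) in the RIP libraries and 24800 ± 498 in inputs 1 to 3. The mRNA of CNOT1, the scaffold of the complex, had 144350 ± 1397 and 35314 ± 3995, a log2 difference of 2.04 (SE 0.13).

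ZFP36 mRNA, which encodes the prototype of the decay-promoting family, had 1581, 1396 and 1709 normalized counts in RIP libraries 1 to 3. A normalized count is the number of reads in a gene divided by the library's size factor. In inputs 1 to 3 it had 243, 203 and 294, so every RIP library lay above every input. The means were 1562 ± 157 and 247 ± 45.6 (SD, n = 3 each), a log2 difference of 2.67 (SE 0.21, 95% interval 2.21 to 3.13). The adjusted p was 2.6e-06 (limma on log2 of the normalized count plus 1, Benjamini-Hochberg over all genes tested). Of the genes tested, 1.54% had a larger log2 difference. ZFP36 drew fewer reads in the inputs than any other member, 178 to 253 a library, and 1873 to 2180 in the RIP libraries.

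ZFP36L2 mRNA, from a paralog needed for early blood cell development, had 7917, 7718 and 7423 normalized counts in RIP libraries 1 to 3. The inputs had 2145, 1739 and 1951, and the groups did not overlap. The means of 7686 ± 249 and 1945 ± 203 (SD, n = 3 each) gave a log2 difference of 1.99 (SE 0.12) and an adjusted p of 8.8e-07 (limma).

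ZFP36L1 mRNA, from a paralog also known as BRF1 or TIS11B, had 11429, 9044 and 7896 normalized counts in RIP libraries 1 to 3. The inputs were close together at 3028, 3007 and 2911, far below the lowest RIP library. The means were 9456 ± 1802 and 2982 ± 62.1 (SD, n = 3 each), a log2 difference of 1.65 (SE 0.14) with an adjusted p of 3.9e-06 (limma). The spread between RIP libraries was the wider one, a coefficient of variation of 19.1% against 2.08% in the inputs. Without RIP library 2, the log2 differences of ZFP36, ZFP36L2 and ZFP36L1 were 2.75, 1.98 and 1.67.

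These 3 mRNAs rose among genes of which 22.5% (3754 of 16674) were called higher in the RIP libraries at an adjusted p under 0.05. By non-overlap alone, 27.3% of genes tested had every RIP library above every input, and of the 8 members ZFP36, ZFP36L1 and ZFP36L2 were among them.

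HNRNPD mRNA, which encodes AUF1, a binder that mostly promotes decay, had 6808, 5658 and 8077 normalized counts in RIP libraries 1 to 3. It had 13541, 14980 and 15678 in inputs 1 to 3, all above the highest RIP library. The means were 6848 ± 1210 and 14733 ± 1090 (SD, n = 3 each). HNRNPD fell by 1.12 on the log2 scale (SE 0.14), with an adjusted p of 5.6e-05 (limma).

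KHSRP mRNA encodes a KH-domain protein that recruits decay enzymes to AU-rich elements and also acts in splicing and microRNA processing. It drew the most reads of the members in every library, with 13966, 13878 and 16722 normalized counts in RIP libraries 1 to 3. The inputs had 23434, 23867 and 25250, again without overlap. The means of 14855 ± 1617 and 24184 ± 949 (SD, n = 3 each) gave a log2 difference of -0.71 (SE 0.12), with an adjusted p of 0.00045 (limma). HNRNPD and KHSRP stood among the 21.3% of genes tested (3546) that were called lower. The call for KHSRP was lost when libraries were scaled to total reads (log2 difference -0.21, limma adjusted p = 0.225), while that for HNRNPD held at -0.62.

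ELAVL1 mRNA encodes HuR, the most widely expressed protein that stabilises mRNAs with AU-rich elements. Its normalized counts in RIP libraries 1 to 3 were 8052, 7153 and 8019. In inputs 1 to 3 they were 7908, 8459 and 9091, and the groups overlapped. The log2 difference was -0.13 (SE 0.11, 95% interval -0.38 to 0.12), with an adjusted p of 0.38 (limma).

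TIA1 and TIAL1 encode related proteins that bind U-rich sequence, hold back translation and gather in stress granules. TIA1 mRNA had 1631, 1632 and 1297 normalized counts in RIP libraries 1 to 3. It had 2020, 1882 and 1673 in inputs 1 to 3. Every RIP library lay below every input, as it did for 27.5% of genes tested, but the log2 difference of -0.29 (SE 0.15, 95% interval -0.63 to 0.038) did not pass (limma adjusted p = 0.142). TIAL1 mRNA had 4042, 4081 and 4708 in RIP libraries 1 to 3 and 4460, 4321 and 4358 in inputs 1 to 3, with both extremes in the RIP group. Its log2 difference was -0.038 (SE 0.12, 95% interval -0.29 to 0.21), with an adjusted p of 0.82 (limma). These intervals leave room for changes of the size of their bounds and do not show equal levels.

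**Figure D1:**
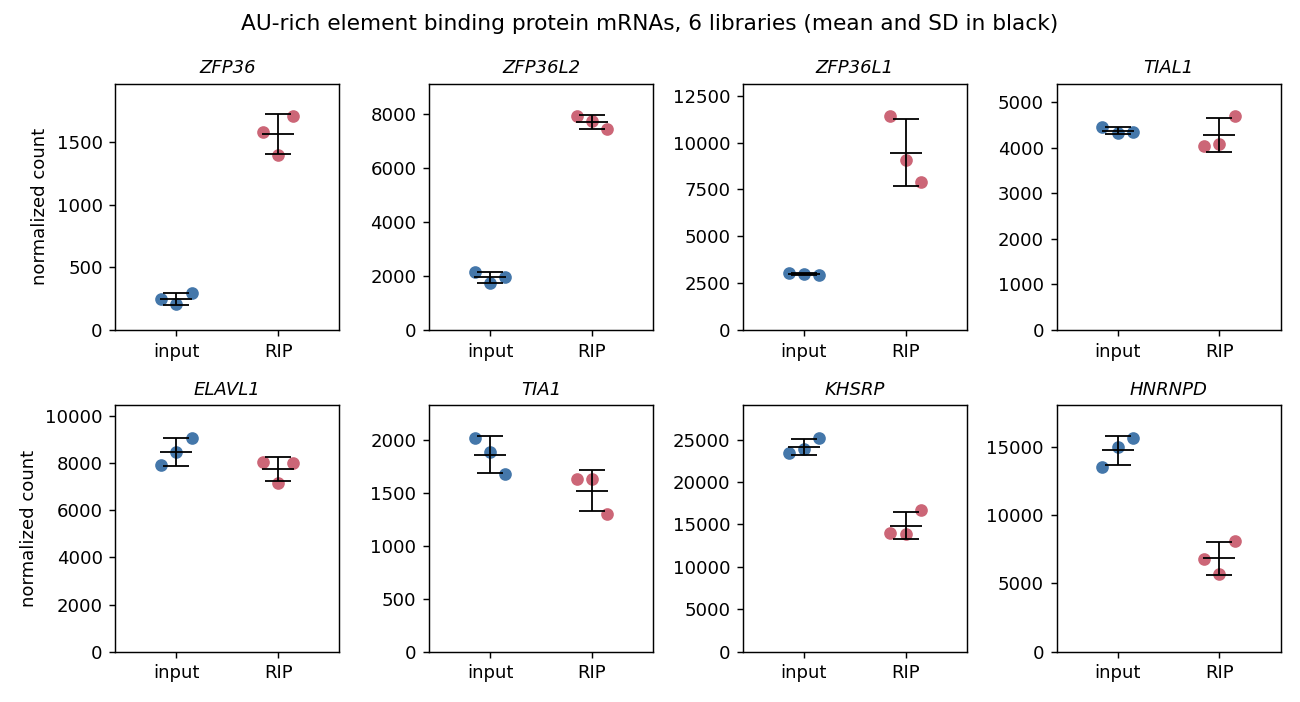
Normalized counts of the 8 mRNAs in each of the 3 RIP libraries and inputs 1 to 3, 1 panel per gene with its own linear axis from 0, 1 point per library, and the mean and SD in black. For ZFP36, ZFP36L1 and ZFP36L2 all RIP points lie above all input points, for HNRNPD, KHSRP and TIA1 all lie below, and for ELAVL1 and TIAL1 they overlap.

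Ordered by log2 difference, the members ran ZFP36, ZFP36L2, ZFP36L1, TIAL1, ELAVL1, TIA1, KHSRP and HNRNPD. In the 7 comparisons of neighbours in that order, the within-library log2 ratio of the 2 genes was compared between groups. The order came from the same libraries, so the pairs and their direction were set by the values compared. Non-overlap of a pair is therefore a description and not independent support. The share of such pairs over all genes was not computed. The RIP and input ratios did not overlap for ZFP36 over ZFP36L2 (difference of log2 folds 0.69), ZFP36L1 over TIAL1 (1.69) and KHSRP over HNRNPD (0.41). Each had an exact two-sided permutation p of 0.1, the smallest that 3 libraries against 3 allow, and 0.233 after Benjamini-Hochberg adjustment over the 7. No pair could therefore pass at 0.05 in this design. The ratios overlapped for ZFP36L2 over ZFP36L1 (0.34, SE 0.157, exact p = 0.2), which does not show that these neighbours are equal. They also overlapped for TIAL1 over ELAVL1, ELAVL1 over TIA1 and TIA1 over KHSRP (exact p of 0.4, 0.5 and 0.3).

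**Figure D2:**
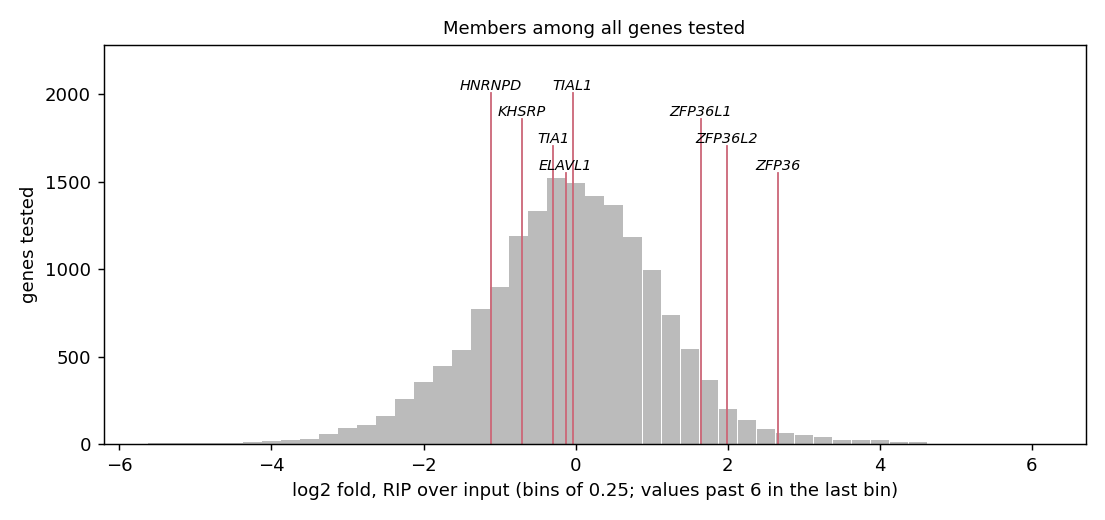
Number of genes tested (vertical axis) by log2 difference between RIP and input libraries (horizontal axis, bins of 0.25), with a red line at each of the 8 members. The 3 ZFP36 genes lie at 1.65 to 2.67, while the median over all genes tested is -0.050.

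The ratio of 2 genes within a library does not depend on how libraries are scaled. Per 100 reads of ELAVL1, ZFP36 had 19.6, 19.5 and 21.3 reads in RIP libraries 1 to 3 and 3.08, 2.40 and 3.24 in inputs 1 to 3. On the same measure ZFP36L1 had 141.9, 126.4 and 98.5 reads in the RIP libraries and 38.3, 35.5 and 32.0 in the inputs. ZFP36L2 had 98.3, 107.9 and 92.6 against 27.1, 20.6 and 21.5. In each of these cases the lowest RIP library was more than 2-fold above the highest input. The share of all genes for which this holds on the same measure was not computed.

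HNRNPD moved the other way, at 84.6, 79.1 and 100.7 reads per 100 ELAVL1 reads in the RIP libraries and 171.2, 177.1 and 172.5 in the inputs. KHSRP had 173.4, 194.0 and 208.5 against 296.3, 282.1 and 277.7. TIA1 (19.7 ± 3.35 and 22.1 ± 3.57) and TIAL1 (55.3 ± 4.52 and 51.8 ± 4.28, SD, n = 3 each) differed by about the spread between libraries. Of all reads in the 8 genes, the 3 ZFP36 genes held 37.8%, 35.9% and 30.5% in the RIP libraries and 9.54%, 8.47% and 8.42% in the inputs.

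With total-read scaling log2 differences shifted up by 0.49, 36.9% of genes tested were called higher and 9.90% lower, and higher calls made up 78.8% of all calls in place of 51.4%. Under that scaling 5 members were higher and 1, HNRNPD, was lower. TIAL1 (0.46, limma adjusted p = 0.012) and ELAVL1 (0.36, limma adjusted p = 0.027) joined the 3 ZFP36 genes, and TIA1 stood at 0.20 without a call. Leaving mitochondrial genome transcripts out of the total returned ELAVL1 to 0.0049 and TIAL1 to 0.10, neither called, and KHSRP and HNRNPD to -0.57 and -0.98, both called lower. The ZFP36 genes were higher under each of these scalings.

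**Figure D3:**
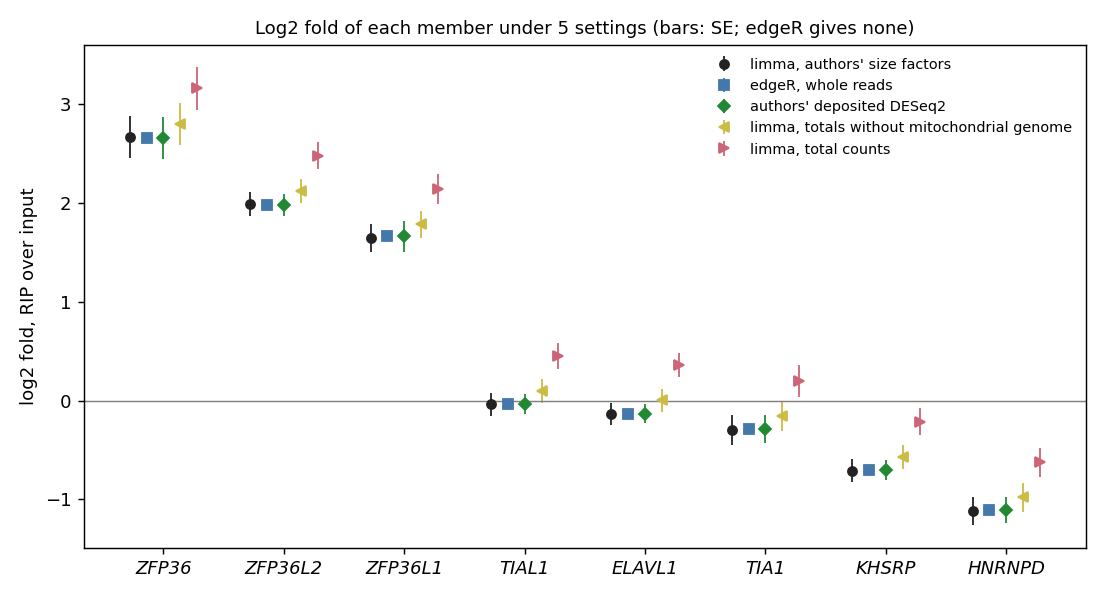
Log2 difference between RIP and input libraries for the 8 mRNAs under the deposited size factors, under total-read scaling with and without the mitochondrial genome, under edgeR and in the authors' deposited table, with SE as bars (none for edgeR). The 3 ZFP36 genes stay above 1.5 and HNRNPD stays below 0 in all, while ELAVL1 and TIAL1 cross 0 under both total-read scalings and TIA1 under the one with the mitochondrial genome.

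The deposited mean of each gene covers 9 libraries, so the mean of the other 3 inputs could be derived from it, without a spread. ZFP36 had a derived mean of 104 normalized counts there, against 247 in inputs 1 to 3, a log2 difference between input sets of 1.25. Over the genes with a value the median of that difference was -0.0057 and the quartiles were -0.38 and 0.39. ZFP36L1 had 2409 and ZFP36L2 had 2761 in the other 3 inputs, against 2982 and 1945. KHSRP had 34827 there, above all of inputs 1 to 3, and HNRNPD had 14029, within their range. Set against all 6 inputs, the log2 ratios of mean normalized counts were 3.16 for ZFP36, 1.81 for ZFP36L1 and 1.71 for ZFP36L2. They were -0.99 for KHSRP, -1.07 for HNRNPD, -0.37 for TIA1, -0.25 for TIAL1 and -0.18 for ELAVL1. CNOT7 mRNA had a derived mean of 4240 in the other 3 inputs, against 24800 in inputs 1 to 3. Its log2 difference between input sets was 2.55, so the CNOT7 level differed between the 2 sets. Whether this gap follows doxycycline was not tested.

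In the RefSeq annotation of GRCh38.p14 the 3 ZFP36 genes are the shortest of the members from end to end. ZFP36 spans 2.56 kb (chr19:39406847-39409407), ZFP36L2 spans 4.21 kb (chr2:43222402-43226606) and ZFP36L1 spans 8.59 kb (chr14:68787655-68796243). HNRNPD (chr4:82352498-82373991) and KHSRP (chr19:6413102-6424811) span 21.5 and 11.7 kb. The other members, ELAVL1 (chr19:7958573-8005641), TIA1 (chr2:70209444-70248793) and TIAL1 (chr10:119573465-119596964), span 47.1, 39.4 and 23.5 kb. HNRNPDL, a paralog of HNRNPD with similar RNA-binding domains, had 7068 ± 563 normalized counts in the RIP libraries and 8141 ± 957 in the inputs, and was not called (log2 difference -0.20, limma adjusted p = 0.22). The processed copies HNRNPDP1 and KHSRPP1 had at most 12 reads in any library, so few reads were assigned to them.

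Among 27 genes of other AU-rich element binding proteins, 25 were tested. Of these 5 rose (20.0%), 10 fell (40.0%) and 10 did not pass, beside 22.5% higher and 21.3% lower over all genes tested. The 5 that rose were ELAVL2, FXR2, RC3H1, RC3H2 and ZC3H12A. RC3H1 and RC3H2 encode Roquin proteins, which act at stem-loops, so the list is wider than its name. The median log2 difference was -0.19, beside -0.050 over all genes tested. ELAVL2, a mostly neuronal relative of ELAVL1, rose by 1.37 (SE 0.13), and RC3H2, a Roquin paralog that promotes decay at stem-loops, rose by 0.84 (SE 0.13). YBX1, a cold-shock domain protein that coats mRNA, had a log2 difference of -2.19 (SE 0.12), and HNRNPA2B1 one of -1.17 (SE 0.11).

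A list of 22 genes held kinases, phosphatases and 14-3-3 proteins that act on ZFP36 proteins, directly or through other kinases. Of these 3 rose (13.6%), 12 fell (54.5%) and 7 did not pass. The median was -0.35, and over all genes tested 22.5% were called higher and 21.3% lower. DUSP1, the phosphatase that switches off p38, rose by 2.39 on the log2 scale (SE 0.18). The same gene is also counted among the mRNAs known to carry AU-rich elements below. MAP2K3, a kinase that activates p38, rose by 0.76 (SE 0.20), but without input library 2 its value of 0.63 did not pass (limma adjusted p = 0.055). The 14-3-3 genes YWHAE and YWHAQ, whose proteins bind phosphorylated ZFP36, had log2 differences of -1.55 and -1.45 (SE 0.12 each).

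Of 23 decay and repression factors that these proteins recruit, 22 were tested. Among them 6 rose (27.3%), 3 fell (13.6%) and 13 did not pass (median 0.033), beside 22.5% higher and 21.3% lower over all genes tested. CNOT1, to which ZFP36 proteins bind directly, rose by 2.04, and GIGYF1, part of a repressor of cap-dependent translation, rose by 1.57 (SE 0.17). PABPC1, the main cytoplasmic poly(A)-binding protein, had a log2 difference of -1.34 (SE 0.12) and is also counted among the stress granule proteins. EXOSC5, a subunit of the RNA exosome, had one of -1.62 (SE 0.29). Of 13 stress granule proteins that assemble with TIA1 and TIAL1, 2 rose (15.4%), 4 fell (30.8%) and 7 did not pass (median -0.16). The 2 that rose were USP10 (0.67, SE 0.11) and DDX3X (0.40, SE 0.14, limma adjusted p = 0.036). DDX3X lost its call without RIP library 1 (0.36), RIP library 2 (0.42), input library 2 (0.43) or input library 3 (0.25), which left 1 stress granule gene higher. The number lower was 2 without RIP library 2, input library 1 or input library 2. PABPC1 and EIF3B (-0.79, SE 0.14) had the smallest p-values among those that fell, and EIF3B was not called under total-read scaling (-0.29, limma adjusted p = 0.134).

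Of 44 mRNAs known to carry AU-rich elements, to which ZFP36 mRNA itself would belong, 36 were tested. Of these 28 rose (77.8%), 3 fell (8.33%) and 5 did not pass, beside 22.5% higher and 21.3% lower over all genes tested. The median log2 difference was 1.52, beside -0.050 over all genes tested. The list was chosen with earlier results of these data known. Its share called and its median therefore describe these data and are not independent support. CXCL2, a chemokine with at most 3 reads in any of inputs 1 to 3, is among the 28 and could pass the filter only through the RIP libraries. SOCS3, also among the 28, had 34.4, 20.6 and 9.30 normalized counts in inputs 1 to 3. It too needed a RIP library to pass the filter. All calls in this list rest on inputs 1 to 3. Against all 6 inputs the value is the log2 of the ratio of mean normalized counts, without a test. It is another measure than the limma difference, so the sizes of the 2 are not strictly comparable. On it 25 of the 28 stayed above 0 and the list's median was 1.30. The 3 that turned below 0 were ATF3 (1.07 to -0.63), CDKN1A (1.07 to -0.48) and GADD45A (0.99 to -0.35), all known as stress response genes. LIF (2.61 to 1.23), VEGFA (2.09 to 1.17), KLF10 (1.44 to 0.65) and CXCL2 (5.28 to 2.96) stayed above 0 with smaller values. Others had larger ones, among them IER3 (2.80 to 3.24), KLF2 (2.24 to 2.62) and JUNB (1.88 to 2.14). In the other 4 lists every called gene kept its sign against all 6 inputs. NFKBIA, the inhibitor of NF-kappaB, had 5354 ± 809 normalized counts in the RIP libraries and 755 ± 76.3 in the inputs (SD, n = 3 each), a log2 difference of 2.82 (SE 0.15). KLF6, an immediate-early zinc finger factor, had 7622 ± 319 and 1490 ± 117, a difference of 2.36 (SE 0.12). ODC1, the first enzyme of polyamine synthesis, had a log2 difference of -1.07 (SE 0.15). That of CCNB1, the mitotic cyclin B1, was -0.57 (SE 0.16), and it was not called under total-read scaling (-0.073, limma adjusted p = 0.747). The log2 differences of ZFP36, ZFP36L2 and ZFP36L1 (2.67, 1.99 and 1.65) were above the median of that list.

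**Figure D4:**
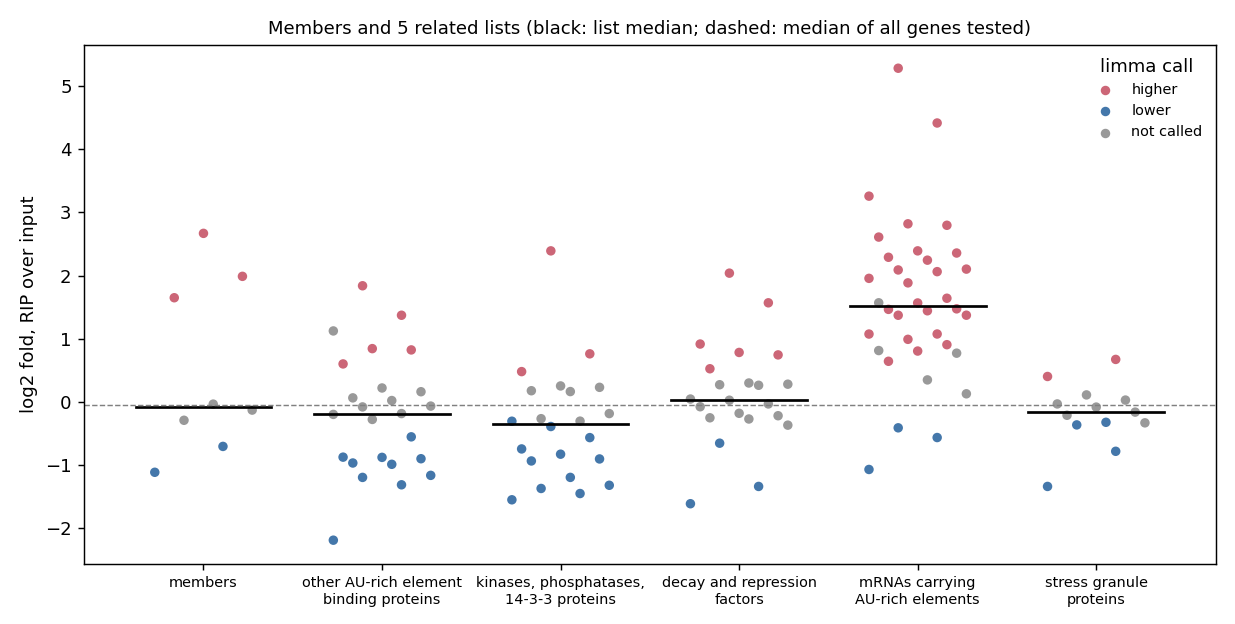
Log2 difference between RIP and input libraries for the tested genes of the 5 lists and the 8 members, 1 point per gene, coloured by its limma call, with each list's median as a black line and the median of all genes tested dashed. The median is 1.52 for mRNAs known to carry AU-rich elements, and lies between -0.35 and 0.033 for the other 4 lists. All lists were chosen with earlier results of these data known.

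The genes with the profile most like each ZFP36 gene were sought among those with a mean of at least 100 normalized counts, by the root mean square difference of log2 values over the 6 libraries, each gene centred on its input mean. FGF9, a fibroblast growth factor, was nearest to ZFP36 (root mean square difference 0.171), followed by IL12A (0.175), a subunit of interleukin 12. P2RY1 (0.086), a purine receptor, and KLF5 (0.092), a zinc finger factor, were nearest to ZFP36L1. ZBTB43 (0.042) and E2F3 (0.065), both transcription factors, were nearest to ZFP36L2.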

How the data were processed

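RIP-seq and input libraries of HEK293T cells were read single-end at 75 bp. Per the submitters' processing notes, STAR, featureCounts and DESeq2 were used with GRCh38; no version or setting is stated. The deposited signal columns hold gene counts that the authors divided by size factors: 100% of values were whole reads within 0.01 read. The authors' deposited table also has log2 fold changes with standard errors, a test statistic (a score) and p-values.

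Log2(normalized count + 1) was fitted with limma 3.58.1 (R 4.3.3; lmFit, eBayes with trend), with RIP against input, Benjamini-Hochberg adjustment and a threshold of 0.05. Recovered reads were also tested with edgeR 4.0.16 and DESeq2 1.42.0. The code of the fit was checked on simulated counts. Few genes were changed there and the spread setting was fixed, unlike in these libraries. Intervals are 95% and cover the spread between these libraries only. A count of 3 reads equals 2.24 to 3.49 normalized counts. Replicates differed by more than counting noise (chi-square per degree of freedom 29.9 to 82.8), so each counted as 1 sample.

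Named genes were the 8 members, CNOT7, CNOT1, the 2 smallest p-values in each direction of each list, and the 2 genes most like each ZFP36 gene. HNRNPDL was added as a paralog of HNRNPD, and the processed copies as near-identical sequences. CXCL2, SOCS3, ATF3, CDKN1A, GADD45A, LIF, VEGFA, KLF10, IER3, KLF2, JUNB, CXCL1 and IL6 fall outside this rule and were chosen after their values were seen. The same holds for FXR2, RC3H1 and ZC3H12A. Members and lists were chosen with earlier results of these data known. Positions come from RefSeq by symbol, for 8 of 8 members.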

Additional observations from a re-analysis of the deposited data

How the results depend on the processing

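The 5 member calls (3 higher, 2 lower) held with each of the 6 libraries left out in turn, when genes higher ranged from 3109 to 3816 and genes lower from 2863 to 3711. Scaling to total reads gave 6152 genes higher (36.9% of genes tested) and 1651 lower (9.90%), in place of 3754 and 3546. Of the members, 5 were higher and 1 was lower. The same scaling turned ELAVL1 (0.36), TIAL1 (0.46) and TIA1 (0.20) above 0. Total reads outside the mitochondrial genome turned ELAVL1 (0.0049) and TIAL1 (0.10). Over the libraries left out in turn TIAL1 ranged from -0.11 to 0.0014, and was above 0 without RIP replicate 1. Asking for a 2-fold change as well left 1904 genes higher and 1778 lower, and 1 member lower, HNRNPD. In the lists, total-read scaling gave 10 other binders higher in place of 5, 6 kinases, phosphatases and 14-3-3 genes higher and 7 lower in place of 3 and 12, 13 decay factors higher in place of 6, 1 mRNA with AU-rich elements lower in place of 3, and 5 stress granule genes higher and 1 lower in place of 2 and 4. A 2-fold change also left 2 other binders higher and 4 lower, and 1 kinase, phosphatase or 14-3-3 gene higher and 5 lower. It left 2 decay factors higher, 1 mRNA with AU-rich elements lower, and 0 stress granule genes higher and 1 lower. Decay factors lower were 5 in place of 3 under DESeq2, the authors' deposited table, the replicate block and a mean of at least 100. With the replicate number as a block, 4041 genes were higher and 3906 lower, and TIA1 passed (limma adjusted p = 0.048). Same-numbered RIP and input libraries had correlations of deviations of 0.25, 0.0025 and 0.24, and those with different numbers ranged from -0.26 to 0.026. Whether the numbers pair the samples was not tested. Outside the mitochondrial genome, total-read scaling gave 10 decay factors higher and 2 stress granule genes lower. An adjusted p under 0.01 left 1 mRNA with AU-rich elements lower, and 1 stress granule gene higher and 2 lower. DDX3X was also not called without the filter on low values (limma adjusted p = 0.073). Against all 6 inputs, 3 of the 28 mRNAs with AU-rich elements called higher were below 0 (ATF3, CDKN1A and GADD45A). Calls rest on 3 libraries a group. Except for total-read scaling, the list counts here stand without shares over all genes and are not read against them.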

Other observations

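Of the mRNAs known to carry AU-rich elements, 8 were not tested, of which 7 have a row in the table and did not pass the filter on low values. CXCL1, a neutrophil chemokine, had 23, 0 and 31 reads in RIP libraries 1 to 3 and 0 in each of inputs 1 to 3. IL6, an inflammatory cytokine, had 15, 0 and 16 reads in the RIP libraries and 0 in each of these inputs. RIP library 2, which had the most genes without a read, was at 0 for both.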
